A study of Mus musculus with 12 samples.

Results

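Gene expression was measured in 4 of the 12 libraries of the series, all of DC2.4 cells, a mouse dendritic line that was immortalized and is of wild-type genotype, harvested after 24 h with extracellular vesicles. The libraries were taken by their labels: 2 of cells given vesicles shed by 4T1 cells that had received uniSTING mRNA (EXOuniSTING, preparations 1 and 2), and 2 of cells given vesicles shed by 4T1 cells that had received Mock mRNA (EXOmock, preparations 1 and 2). The 4T1 line comes from a mouse mammary carcinoma. The series title describes uniSTING as a mimic of the adaptor STING, and the Mock mRNA encodes the fluorescent protein EGFP. The producer cells of both groups had thus received an mRNA, by a transfection reagent or by lipid nanoparticles, and the labels do not say which of these was used for which library. DC2.4 cells without vesicles, or with vesicles of untreated 4T1 cells, were not analysed here, so that all differences are between the 2 vesicle treatments of 1 cell line. The remaining 8 libraries, of cells given either mRNA directly, entered the estimate of the spread, and 4 of them served for 1 comparison at the end. Per the series design, the purpose was to find genes of the recipient cells under the control of microRNAs that the vesicles carry; the values are gene counts, and microRNAs were not analysed here.

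STING is an adaptor of the endoplasmic reticulum that, once it has bound a cyclic dinucleotide, recruits the kinase TBK1, which phosphorylates the factor IRF3 and so starts transcription of type I interferon. Secreted interferon binds its receptor, and the kinases JAK1 and TYK2 activate a complex of STAT factors and IRF9 that turns on antiviral genes through a short promoter element, the interferon-stimulated response element. Extracellular vesicles are membrane-bound particles that carry proteins, lipids and RNA from one cell to another, and dendritic cells that take them up can present their contents to T cells.

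The 4 vesicle libraries held 14.1 to 21.2 M counts and detected 17174 to 18309 genes; the mitochondrial share was 1.96 to 2.14%. Levels are given as CPM, the counts of a gene scaled to a common library total, in the order EXOmock preparation 1, EXOmock preparation 2, EXOuniSTING preparation 1 and EXOuniSTING preparation 2 where 4 values stand together. A floor of 3 counts, below which a level was treated as not detectable, corresponded to 0.141 to 0.213 CPM and reflects counting error alone. The labels call the replicates preparations, while the file headers name both libraries of a group by 1 code with a suffix, so that the spread behind each p-value may be technical. Within a group the libraries stood close to counting noise: the median chi-square per gene was 0.654 for EXOmock and 0.660 for EXOuniSTING, against 0.455 under counting alone, and 10.4 and 10.9% of genes lay past the 5% point. Between the groups, with the counts of the 2 libraries of each group summed, the median was 3.10 and the share 45.7% of 12243 genes. Chi-square grows with the counts, so that these values and those within a group are not on 1 scale.

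The cell label was checked against marker genes. Ptprc, the pan-leukocyte phosphatase CD45, stood at 309, 310.3, 305 and 302 CPM, and Spi1, the myeloid factor PU.1, at 181, 179, 201 and 201 CPM. The 35 leukocyte markers summed to 17905 and 18006 CPM in EXOmock and to 15779 and 14977 CPM in EXOuniSTING. Without Lyz2, the lysozyme gene of myeloid cells, which stood at 8613, 8638, 6545 and 5769 CPM (log2 fold change -0.49 ± 0.24, adjusted p = 0.206), these sums were 9292, 9368, 9234 and 9208 CPM. The 30 epithelial markers summed to 142 to 159.6 CPM with 2 of them at 0 in all 4 libraries; Epcam, a defining gene of epithelial cells, had 3, 0, 11 and 0 counts, and the keratin Krt8 had 8, 0, 15 and 2. Lymphocyte markers summed to 12.4 to 13.9 CPM with 11 of 21 at 0, and fibroblast and endothelial markers to 33.3 to 44.4 CPM. Preparation 1 libraries of both groups carried a few transcripts of pancreas and lung, such as Ins2 (704, 0, 171 and 0 counts) and Sftpc (523, 0, 602 and 0 counts); 6 genes had at least 50 counts in both preparation 1 libraries and 0 in both preparation 2 libraries, at most 0.012% of counts. Counts without preparation 1 are therefore given beside the leading results. The libraries labelled DC2.4 that received mRNA had leukocyte markers at 193 to 248 CPM, and those labelled 4T1 at 12536 to 13000 CPM, which goes against both labels.

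Interferon-stimulated genes led the rises in EXOuniSTING, while the falls included the chemokine gene Ccl6, the coagulation factor gene F5 and the nuclear RNA Malat1. Of 14863 genes tested, 1183 were higher and 1210 lower in EXOuniSTING (edgeR quasi-likelihood test, Benjamini-Hochberg adjusted p below 0.05), which is 7.96% and 8.14%. Most differences were small: 59.8% of the 2393 genes called differed by less than 1.2-fold, and the median absolute log2 fold change of called genes was 0.22. At least 2-fold differences numbered 94 higher and 84 lower (0.632% and 0.565% of the genes tested), and among the 10101 genes with 5 CPM or more in the higher group 17 higher and 6 lower. Of these 6, 3 were processed pseudogenes, named after their values were seen as Cdv3-ps, Gm11451 and Rpl30-ps10, whose reads can come from close copies. Leaving out 1 library lowered the counts to 677 higher and 763 lower without EXOmock preparation 1, 659 and 695 without EXOmock preparation 2, 769 and 763 without EXOuniSTING preparation 1, and 603 and 691 without EXOuniSTING preparation 2. With the preparation 2 vesicle libraries alone, where the spread is taken from the other groups, 420 genes were higher and 453 lower. In bulk RNA, fewer cells of a type and less RNA per cell cannot be told apart. The shares of lists given below are set beside those of all genes tested, at any level. Small steps pass more readily in genes with many counts, and the part of level in these shares was not tested.

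**Figure D1:**
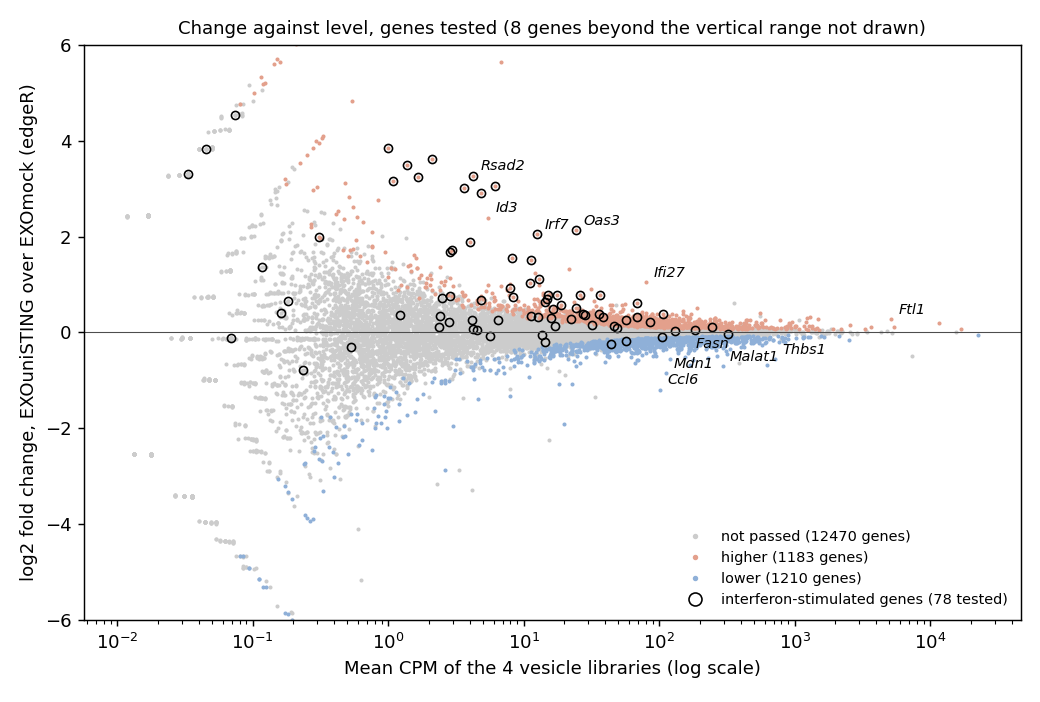
Log2 fold change of EXOuniSTING over EXOmock (edgeR, vertical axis) against the mean CPM of the 4 vesicle libraries (log scale, horizontal axis) for the genes tested, with called genes in colour and the 78 tested interferon-stimulated genes circled; 8 genes beyond a log2 fold change of 6 are not drawn. The circled genes with the largest rises, such as Rsad2 at 3.27 and Oas3 at 2.13, stand above most genes of their level, and Ccl6 at -1.20 and Mdn1 at -0.85 stand below.

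Among 87 interferon-stimulated genes, 78 passed the filter on low counts, and 42 of these were higher in EXOuniSTING (53.8%, against 7.96% of all genes), 1 was lower and 35 did not pass. The median log2 fold change of the tested members was 0.50, or 0.38 when the 4 members without a count in 1 group were taken at their bound, against 0.00 over all genes. Of the 42, 20 rose at least 2-fold, 9 between 1.5-fold and 2-fold, and 13 less. Each of the 42 was higher in preparation 1 and in preparation 2, which their choice by a test on these same libraries made likely. The count was 34 with preparation 2 alone, 32 to 38 when 1 library was left out, and 11 when the test asked for more than a 2-fold change. The 9 members too low to test included Mx1 with 1, 0, 2 and 6 counts and Cxcl9 with 0 in all 4 libraries.

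The oligoadenylate synthetases, which make a second messenger on binding double-stranded RNA, were among the genes with the smallest adjusted p. Oas3 stood at 10.0 and 8.29 CPM in EXOmock and at 39.4 and 39.9 CPM in EXOuniSTING, a log2 fold change of 2.13 ± 0.10 (SE, adjusted p = 3.57e-08). Oas2 stood at 1.35 and 1.28 CPM against 10.7 and 11.2 CPM (3.05 ± 0.20, adjusted p = 1.19e-06). Oasl2, a synthetase-like protein, stood at 1.07 and 1.18 CPM against 9.31 and 7.91 CPM (2.92 ± 0.17, adjusted p = 1.34e-07). In each of these genes both EXOuniSTING libraries lay above both EXOmock libraries with no overlap. This was a condition for their place among the largest rises, and is not separate support. Oasl1 rose by 1.51 and Oas1a, from 26.7 and 27.6 to 45.8 and 47.6 CPM, by 0.78 on the log2 scale.

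Antiviral effectors outside this family also rose. Rsad2, which encodes viperin, an enzyme that makes a chain-terminating nucleotide, stood at 0.925 and 0.695 CPM in EXOmock and at 7.03 and 8.38 CPM in EXOuniSTING (3.27 ± 0.24, adjusted p = 1.19e-06). Ifit1, whose product binds viral RNA ends, stood at 0.640 and 0.909 CPM against 6.50 and 6.41 CPM (3.02 ± 0.25, adjusted p = 3.56e-06). Isg15, a ubiquitin-like modifier, stood at 1.49 and 1.87 CPM against 6.43 and 6.22 CPM (1.89 ± 0.18, adjusted p = 1.18e-05). The levels of these genes in EXOmock were low, between 9 and 35 counts. The EXOuniSTING libraries did not overlap with them, which was again a condition for their place among the largest rises. Usp18, which removes Isg15 from proteins, had 7 and 3 counts in EXOmock and 62 and 76 in EXOuniSTING. Rtp4, a gene of the receptor transporter protein family, had 0 counts in both EXOmock libraries and 58 and 81 in EXOuniSTING. This is at least 21.0-fold higher over a floor of 3 counts per library. Cmpk2, the neighbour of Rsad2, had 3 and 1 counts against 28 and 39, and Ifit3 had 7 and 3 against 44 and 64.

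Among the regulators, Irf7, the factor that amplifies interferon transcription, stood at 5.12 and 4.71 CPM in EXOmock and at 20.5 and 20.1 CPM in EXOuniSTING (2.05 ± 0.15, adjusted p = 1.19e-06). Irf9, the DNA-binding part of the interferon-activated complex, rose from 13.2 and 12.996 to 20.6 and 24.2 CPM (0.78 ± 0.11, adjusted p = 0.000275). Stat2, a part of the same complex, did not pass the test, at 21.6, 19.0, 24.5 and 24.4 CPM (adjusted p = 0.0600). The DNA-binding family of p200 proteins rose in part, with Ifi204 at 4.98 and 3.48 CPM against 12.5 and 11.7 CPM (1.54 ± 0.15, adjusted p = 1.95e-05) and Ifi207 at a log2 fold change of 1.11 ± 0.13 (adjusted p = 5.46e-05). Smaller rises passed for Eif2ak2, the double-stranded RNA-dependent kinase PKR (0.51 ± 0.06), for Bst2, the tetherin that holds budding virus on the cell (0.38 ± 0.05), and for Adar, an RNA-editing enzyme (0.33 ± 0.06). Ifi27, a mitochondrial interferon-induced protein gene outside the list, went from 51.1 and 53.4 to 107 and 109 CPM (1.04 ± 0.06, adjusted p = 1.15e-07).

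Other members of the list did not pass. The guanylate-binding proteins, GTPases that attack pathogen vacuoles, had 0 of 5 tested members past the threshold (Gbp2, Gbp3, Gbp4, Gbp5 and Gbp7, with adjusted p of 0.0797 to 1.00), and of the related immunity GTPases Irgm1 rose by 0.78 ± 0.09 while Igtp stood at 2.99, 4.60, 3.89 and 5.27 CPM (adjusted p = 0.518). Ifitm3, a membrane protein that blocks viral entry, stood at 326, 325, 315 and 324 CPM, and Irf8, a factor of dendritic cell development, at 180.1, 179.9, 189 and 183 CPM. Nlrc5, the activator of MHC class I genes, was the 1 member that was lower (50.1, 46.7, 40.8 and 40.6 CPM, -0.25 ± 0.06, adjusted p = 0.0189). That call was lost without EXOmock preparation 1 (adjusted p = 0.129), without EXOuniSTING preparation 1 (0.0750), without EXOuniSTING preparation 2 (0.105) and under DESeq2 (0.0652).

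**Figure D2:**
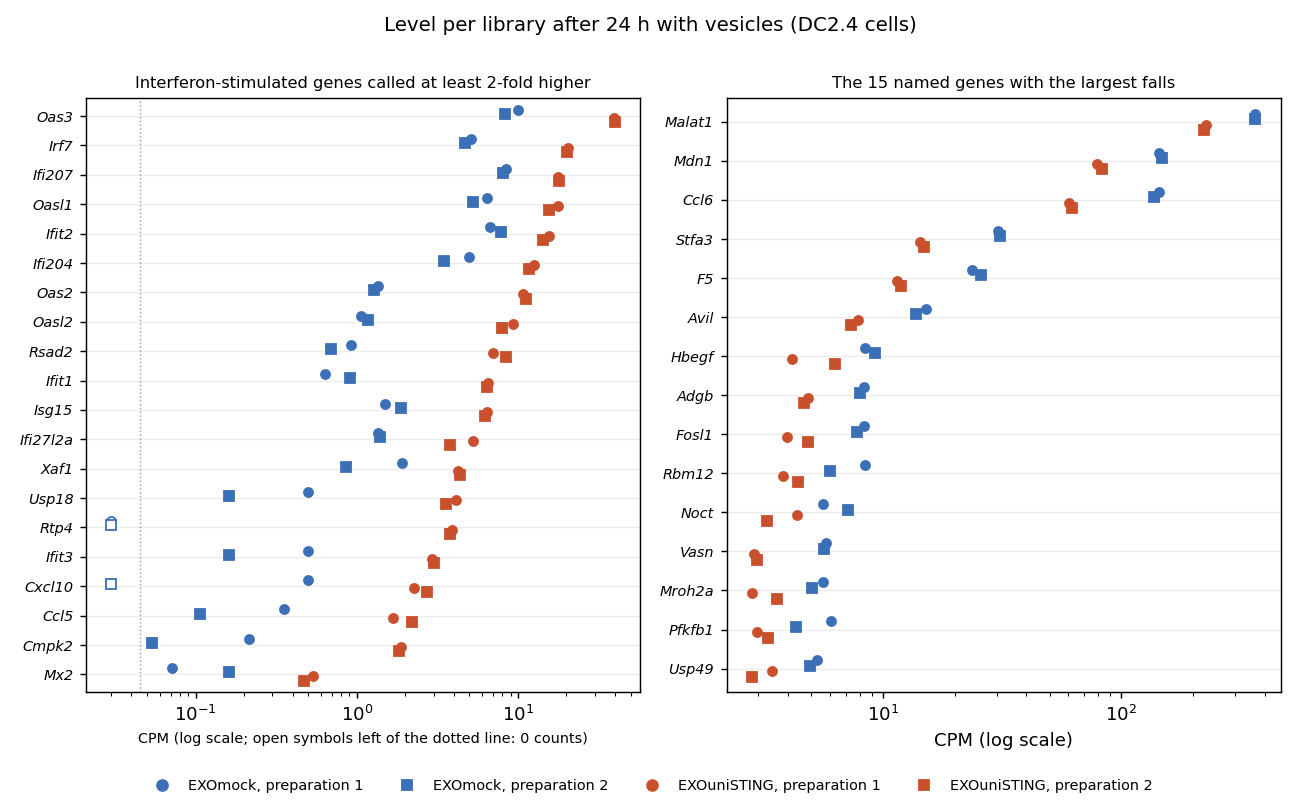
CPM in each of the 4 vesicle libraries (log scale) for the 20 interferon-stimulated genes called at least 2-fold higher (left) and for the 15 named genes with the largest falls (right); circles are preparation 1, squares preparation 2, and open symbols 0 counts. In the left panel both EXOuniSTING libraries lie to the right of both EXOmock libraries for each gene, as for Oas3 at 39.4 and 39.9 CPM against 10.0 and 8.29 CPM, and in the right panel they lie to the left, as for Ccl6 at 60.6 and 62.0 CPM against 144 and 137 CPM. In the right panel this separation was a condition for choosing the genes. In the left panel the choice by a test on these same libraries made it likely.

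To show the promoters behind the leading rises, the promoters of the 4 members with the smallest adjusted p and an entry in the table used are shown, as the 160 bases before the start of the gene, on the gene's own strand, from RefSeq on GRCm38.p6 (the deposited counts are on GRCm39). Capitals mark matches to the core of the interferon-stimulated response element, which is GAAA, any 2 bases and GAAA again, or its reverse complement, TTTC, any 2 bases and TTTC. Oas2 has no entry.
Oas3, chr5:120777660-120777819, minus strand: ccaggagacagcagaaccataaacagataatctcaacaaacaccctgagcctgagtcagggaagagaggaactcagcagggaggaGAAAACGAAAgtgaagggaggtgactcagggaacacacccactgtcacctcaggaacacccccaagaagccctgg
Rsad2, chr12:26456453-26456612, minus strand: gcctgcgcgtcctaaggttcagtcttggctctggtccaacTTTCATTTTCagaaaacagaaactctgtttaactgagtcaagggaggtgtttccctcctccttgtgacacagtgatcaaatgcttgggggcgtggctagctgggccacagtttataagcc
Oasl2, chr5:114896774-114896933, plus strand: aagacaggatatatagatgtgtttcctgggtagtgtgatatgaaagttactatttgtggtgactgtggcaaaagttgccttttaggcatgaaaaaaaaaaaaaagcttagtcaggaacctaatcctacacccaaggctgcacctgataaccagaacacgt
Irf7, chr7:141266425-141266584, minus strand: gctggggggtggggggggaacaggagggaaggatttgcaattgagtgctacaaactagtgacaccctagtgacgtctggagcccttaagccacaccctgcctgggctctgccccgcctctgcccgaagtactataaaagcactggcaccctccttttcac
Oas3 and Rsad2 hold 1 match each, on the forward and the reverse strand, and Oasl2 and Irf7 hold none in this window. Over windows of 250 bases before to 50 after the start, on both strands, a match was present in 3.44% of 32841 promoters in the table and in 3.81% of the 10377 tested genes with an entry. It was present in 5.90% of genes that were higher and in 2.84% of genes that were lower. Among interferon-stimulated genes it was present in 15 of 32 that were higher (46.9%) and in 17 of 29 that were tested and not higher (58.6%). These 15 are part of the 54 genes behind the 5.90%, so that this share does not describe the other higher genes.

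Of the interferon ligands themselves, 0 of 21 genes reached a level that could be tested. Ifnb1, the interferon-beta gene, had 0, 0, 0 and 2 counts, under the floor in every library, and 18 of the 21 had 0 counts in all 4 libraries. A difference in interferon transcripts was thus not detectable at this depth. Of 23 genes for interferon and related receptors, JAK kinases, STAT factors and SOCS inhibitors, 6 were higher, 1 was lower and 16 did not pass (median 0.07). The shares were 26.1% higher and 4.35% lower, against 7.96% and 8.14% of all genes. Of the 6, Irf9 alone held its call in each of 12 alternative settings. The call was lost in 5 of these for Tyk2 and Il10rb, 4 for Socs3, 3 for Jak2 and 1 for Stat5a. That for Socs2, the lower member, was lost in 2. Under DESeq2 the adjusted p was 0.0710 for Il10rb and 0.0782 for Socs3. The receptor chain Ifnar1 stood at 83.1, 85.5, 90.8 and 92.6 CPM (0.12 ± 0.04, adjusted p = 0.0555), and the kinase Jak1 at 206, 203, 199 and 194 CPM (adjusted p = 0.162).

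Of 24 tested genes of the STING pathway and of nucleic acid sensing, 7 were higher and 1 lower (median 0.04). The shares were 29.2% and 4.17%, against 7.96% and 8.14% of all genes. The adaptor itself, Tmem173 (Sting1), stood at 38.9, 44.9, 47.2 and 49.0 CPM, a log2 fold change of 0.19 ± 0.07 that did not pass (adjusted p = 0.0958). Nor did Tbk1 (62.1, 68.5, 68.7 and 73.0 CPM, adjusted p = 0.185) or Irf3 (39.8, 41.6, 36.8 and 35.9 CPM, adjusted p = 0.115). In these 3 genes the groups differed by less than 1.2-fold. Ddx58, the RNA sensor RIG-I, which is itself interferon-inducible, went from 6.54 and 7.75 to 16.1 and 17.99 CPM (1.25 ± 0.12, adjusted p = 1.32e-05). Dhx9, an RNA helicase, was the 1 member that fell, from 94.0 and 89.2 to 71.8 and 65.7 CPM (-0.42 ± 0.05, adjusted p = 3.68e-05).

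Of 39 tested chemokine and cytokine genes 4 were higher (10.3%) and 5 lower (12.8%), near the 7.96% and 8.14% of all genes. Cxcl10, which draws activated T cells, had 7 and 0 counts in EXOmock and 34 and 58 in EXOuniSTING, a count ratio of 11.9 with a 95% interval of 5.55 to 30.4 for counting error only. Ccl5, another T cell chemokine, had 5 and 2 counts against 25 and 47, a ratio of 9.32 (4.30 to 24.0). Both thus rose from near the floor. Ccl6, a chemokine of myeloid cells, fell from 144 and 137 to 60.6 and 62.0 CPM (-1.20 ± 0.10, adjusted p = 4.85e-06), a call that DESeq2 did not make (adjusted p = 0.128). Ccl9, of the same subfamily, fell from 309 and 311 to 222 and 221 CPM (-0.49 ± 0.04, adjusted p = 2.19e-06), and Ccl2, which draws monocytes, from 120.5 and 121 to 96.3 and 91.9 CPM (-0.36 ± 0.04, adjusted p = 0.000117). Spp1, the secreted osteopontin, stood at 15424, 15468, 15641 and 15603 CPM (adjusted p = 0.374). Il6 had 3, 6, 2 and 2 counts, and Il12b had 0 in all 4 libraries.

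NF-kB factors and targets gave 5 higher (11.4%, against 7.96% of all genes) and 7 lower (15.9%, against 8.14%) of 44 tested, with a median of 0.02. Nos2, the inducible nitric oxide synthase, fell from 79.2 and 85.2 to 54.2 and 56.2 CPM (-0.57 ± 0.06, adjusted p = 2.50e-05), and Ier3, an early response gene, from 95.2 and 95.3 to 74.2 and 75.2 CPM (-0.35 ± 0.04, adjusted p = 2.72e-05). Gadd45b, a stress response gene, rose from 17.7 and 19.1 to 27.7 and 29.4 CPM (0.63 ± 0.07, adjusted p = 6.43e-05). Tnf stood at 42.3 and 43.0 CPM against 33.6 and 36.5 CPM (-0.28 ± 0.08, adjusted p = 0.0245). The call for Tnf was lost without EXOmock preparation 1 (adjusted p = 0.0751), without EXOmock preparation 2 (0.121), without EXOuniSTING preparation 1 (0.148) and under DESeq2 (0.0564).

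Genes for antigen presentation on MHC class I were higher in 11 of 28 cases (39.3%, against 7.96% of all genes) and lower in 2 (7.14%, against 8.14%), with a median of 0.17. B2m, the light chain shared by class I molecules, rose from 724 and 699.5 to 855 and 842 CPM (0.25 ± 0.02, adjusted p = 2.67e-06). H2-T23, a nonclassical class I heavy chain that natural killer cells read, rose from 45.2 and 44.9 to 66.3 and 69.0 CPM (0.59 ± 0.05, adjusted p = 2.10e-06). The peptide transporter Tap1 rose by 0.49 ± 0.06 (adjusted p = 6.39e-05) and the loading factor Tapbp by 0.46 ± 0.05 (adjusted p = 5.13e-05). The classical heavy chains differed less, with H2-K1 at 0.19 ± 0.02 (adjusted p = 3.17e-05); near-identical class I genes can share reads, so that single members are uncertain. The activator Nlrc5, described above, and Tapbpl (-0.38 ± 0.12, adjusted p = 0.0457) were the 2 members that were lower; the call for Tapbpl was lost in 11 of 12 alternative settings, with adjusted p of 0.0749 and 0.276 without EXOmock preparation 1 or 2 and of 0.0664 and 0.284 without EXOuniSTING preparation 1 or 2. For MHC class II presentation 3 of 15 tested genes were higher and 0 lower, and the invariant chain Cd74 stood at 155, 151, 163 and 163 CPM (adjusted p = 0.288).

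Co-stimulatory and checkpoint ligands gave 4 higher (18.2%, against 7.96% of all genes) and 2 lower (9.09%, against 8.14%) of 22 tested. The ligands of CD28 did not pass: Cd80 stood at 17.6, 18.9, 18.2 and 17.9 CPM (adjusted p = 0.965) and Cd86 at 62.7, 65.2, 65.9 and 61.0 CPM (adjusted p = 0.921). Cd83, a marker of mature dendritic cells, rose from 30.7 and 32.1 to 39.9 and 44.6 CPM (0.43 ± 0.08, adjusted p = 0.00214). Cd40, the receptor through which T cells license dendritic cells, stood at 21.9 and 21.98 CPM against 30.3 and 25.0 CPM (0.32 ± 0.10, adjusted p = 0.0464). Its call was lost without EXOmock preparation 1 (adjusted p = 0.163), without EXOmock preparation 2 (0.162), without EXOuniSTING preparation 1 (0.318) and under DESeq2 (0.0694). Arg1, the arginase of alternatively activated myeloid cells, fell from 29.7 and 30.5 to 17.8 and 19.3 CPM (-0.70 ± 0.10, adjusted p = 0.000477). Dendritic cell identity factors were higher in 19.0% of the members tested. Of 21 tested dendritic cell identity factors 4 were higher and 0 lower, among them Id2, needed for conventional dendritic cells, at 0.40 ± 0.07 (adjusted p = 0.00104), and Spi1 at 0.16 ± 0.03 (adjusted p = 0.00387, or 0.0763 with preparation 2 alone).

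Surface receptors of myeloid cells were mixed. Among Toll-like receptors and their adaptors 3 of 24 were higher (12.5%, against 7.96% of all genes) and 4 lower (16.7%, against 8.14%). Cd14, a co-receptor for lipopolysaccharide, fell from 354 and 350.3 to 268 and 269.6 CPM (-0.39 ± 0.03, adjusted p = 6.29e-06), and Tlr4, its signalling receptor, from 124 and 119 to 102.6 and 98.5 CPM (-0.27 ± 0.04, adjusted p = 0.000809). Of 34 scavenger, Fc and phagocytic receptors 5 were higher (14.7%) and 8 lower (23.5%). Marco, a scavenger receptor, fell from 50.1 and 50.6 to 35.9 and 34.8 CPM (-0.51 ± 0.08, adjusted p = 0.000971), and the endocytic receptor Lrp1 by 0.30 on the log2 scale (adjusted p = 1.17e-05). Mfge8, a secreted bridge between phosphatidylserine and phagocyte integrins that is also abundant on vesicles, rose from 151 and 147 to 192 and 198 CPM (0.39 ± 0.03, adjusted p = 4.89e-06), and the lipid receptor Trem2 by 0.29 ± 0.03 (adjusted p = 6.56e-05). Of 21 chemokine receptor and migration genes 2 were higher (9.52%) and 6 lower (28.6%). Among the lower ones were the integrin chains Itgam (-0.26 ± 0.04, adjusted p = 0.000680) and Itgb2 (-0.23 ± 0.02, adjusted p = 4.41e-05) and the protease Mmp9 (-0.63 ± 0.10, adjusted p = 0.000712). In the plasminogen system the activator Plau rose from 474 and 485 to 633 and 640.2 CPM (0.41 ± 0.02, adjusted p = 4.42e-08), whereas its receptor Plaur fell from 104 and 107 to 76.0 and 73.9 CPM (-0.49 ± 0.05, adjusted p = 1.45e-05).

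Lysosomal genes were higher in 23 of 45 cases (51.1%, against 7.96% of all genes) and lower in 1 (2.22%, against 8.14%), by small steps of 0.08 to 0.55 on the log2 scale, with a median over the list of 0.09. Psap, the precursor of the saposins that help degrade sphingolipids, stood at 2404, 2425, 2679 and 2716 CPM (0.16 ± 0.02, adjusted p = 5.30e-05). The protease gene Ctsb stood at 3518, 3519, 3802 and 3802 CPM (0.11 ± 0.01, adjusted p = 6.56e-05). Npc2, which hands cholesterol out of the lysosome, rose from 402 and 401 to 486 and 478 CPM (0.26 ± 0.02, adjusted p = 4.59e-06). In these genes, chosen for their small adjusted p, both EXOuniSTING libraries lay above both EXOmock libraries. At these high levels steps of this size passed. The proton pump subunit Atp6v0d2 showed the top of the range, from 27.5 and 28.1 to 40.4 and 41.0 CPM (0.55 ± 0.08, adjusted p = 0.000624). Ctsk, a collagen-degrading protease, was the 1 member that fell, from 531 and 530.0 to 459 and 462 CPM (-0.20 ± 0.03, adjusted p = 0.000569). Ctsl did not pass (2936, 2899, 2883 and 2919 CPM, adjusted p = 0.806).

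Genes of vesicle biogenesis and uptake gave 6 higher (18.2%, against 7.96% of all genes) and 3 lower (9.09%, against 8.14%) of 33 tested. The tetraspanin Cd9, found on many vesicles, fell from 911 and 899 to 799 and 786 CPM (-0.19 ± 0.02, adjusted p = 3.17e-05), while the tetraspanin Cd63 stood at 592, 590.3, 594 and 583 CPM (adjusted p = 0.908). Clathrin heavy chain, Cltc, which coats endocytic pits, fell from 552 and 545 to 488 and 479 CPM (-0.18 ± 0.02, adjusted p = 0.000119). Among 34 NRF2 targets and iron genes 10 were higher (29.4%) and 6 lower (17.6%). The ferritin light chain Ftl1 rose from 4709 and 4658 to 5648 and 5707 CPM (0.28 ± 0.01, adjusted p = 5.11e-08), the heavy chain Fth1 by 0.07 ± 0.01 (adjusted p = 8.85e-05), and the iron exporter Slc40a1 from 62.3 and 58.6 to 81.0 and 75.6 CPM (0.37 ± 0.05, adjusted p = 0.000344). Mt1, a metal-binding metallothionein, fell from 288 and 287 to 239 and 236 CPM (-0.28 ± 0.03, adjusted p = 4.21e-05). Ferritin genes have many processed copies in the genome, and the file headers name the alignments counted as uniquely mapped.

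**Figure D3:**
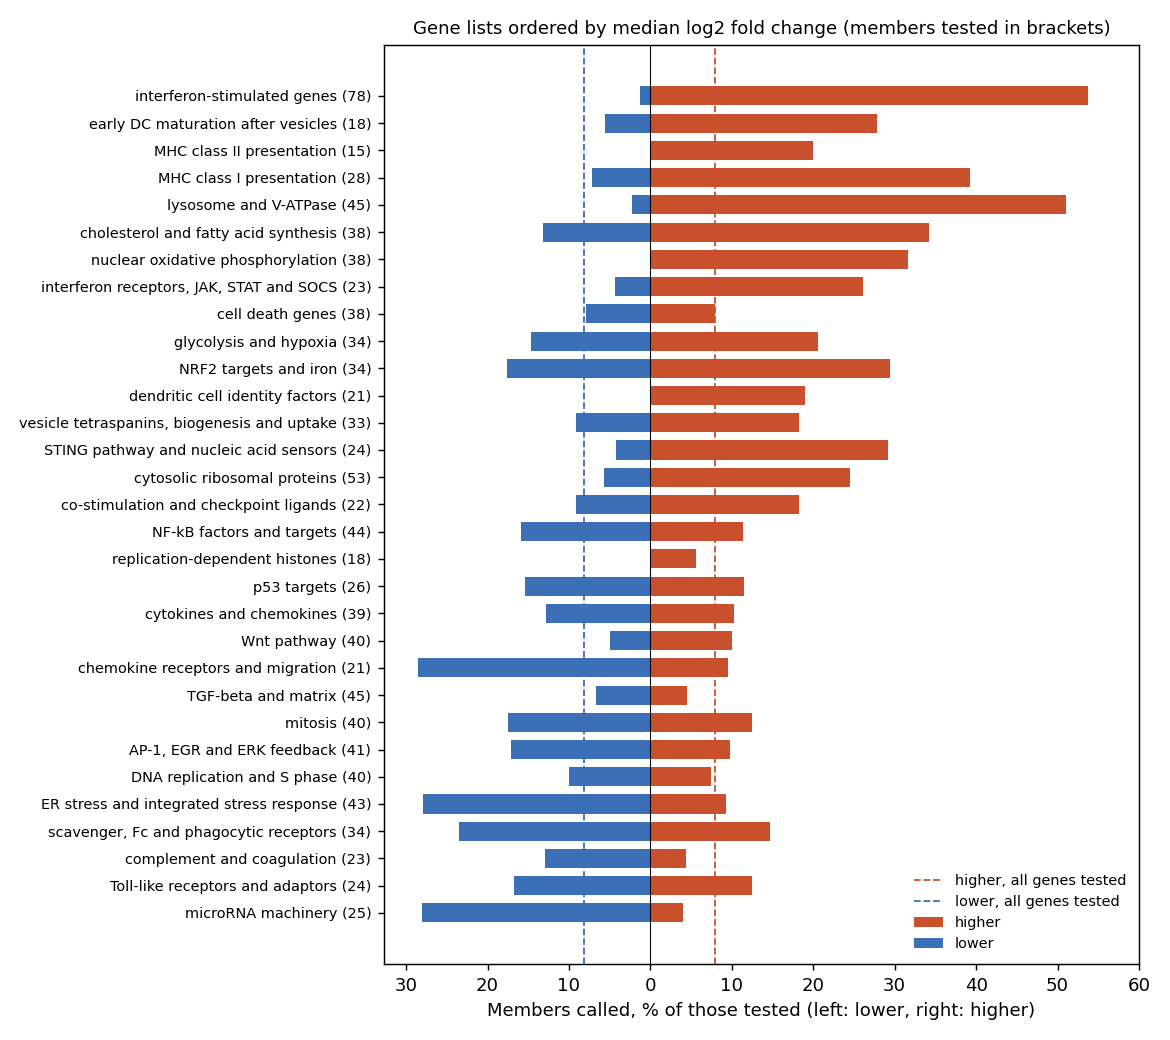
Members called higher (bars to the right) and lower (bars to the left) as a percentage of the members tested, for gene lists with 15 or more tested members (marker lists left out), ordered by median log2 fold change; dashed lines mark 7.96% higher and 8.14% lower over all genes. The interferon-stimulated genes reach 53.8% higher and the lysosomal genes 51.1%, and the microRNA machinery and the chemokine receptors reach 28.0% and 28.6% lower. The lists differ in level, and the part of level in these shares was not tested.

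In metabolism, cholesterol and fatty acid synthesis genes were higher in 13 of 38 cases and lower in 5, and the 2 directions fell on different enzymes. The shares were 34.2% and 13.2%, against 7.96% and 8.14% of all genes. Scd1, a desaturase that makes monounsaturated fatty acids, rose from 22.9 and 20.5 to 43.9 and 37.7 CPM (0.90 ± 0.09, adjusted p = 1.25e-05), and Scd2 from 1117 and 1129 to 1295 and 1308 CPM (0.21 ± 0.01, adjusted p = 3.10e-07). Abcg1, which exports cholesterol, rose by 0.30 ± 0.03 (adjusted p = 4.17e-05) and the regulator Srebf1 by 0.29 ± 0.03 (adjusted p = 7.70e-05). Fasn, the fatty acid synthase, fell from 187 and 189.9 to 142 and 138 CPM (-0.43 ± 0.03, adjusted p = 5.90e-07). Glycolysis and hypoxia genes gave 7 higher (20.6%) and 5 lower (14.7%) of 34 tested. Among them the aldolase Aldoa rose from 1352 and 1345 to 1622 and 1645 CPM (0.28 ± 0.02, adjusted p = 3.23e-07), and Ldha, the lactate dehydrogenase subunit, fell by 0.10 (adjusted p = 0.000319). Nuclear genes of oxidative phosphorylation were higher in 12 of 38 cases (31.6%) and lower in 0, with a median of 0.08. Cytosolic ribosomal protein genes were higher in 13 (24.5%) and lower in 3 (5.66%) of 53 (median 0.04). Of 12 mitochondrially encoded genes tested, mt-Co1 alone passed, at 10882, 10826, 12458 and 12339 CPM (0.19 ± 0.01, adjusted p = 5.26e-08).

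Of 40 DNA replication genes 3 were higher (7.5%) and 4 lower (10.0%), near the 7.96% and 8.14% of all genes, and of 40 mitosis genes 5 were higher (12.5%) and 7 lower (17.5%). Cdc20, an activator of the anaphase-promoting complex, fell from 93.4 and 89.6 to 77.4 and 77.2 CPM (-0.24 ± 0.03, adjusted p = 0.000180), whereas Birc5, the chromosomal passenger survivin, rose from 68.4 and 70.0 to 79.5 and 83.1 CPM (0.23 ± 0.04, adjusted p = 0.00104). Genes of ER stress and the integrated stress response were lower in 12 of 43 cases (27.9%) and higher in 4 (9.3%, median -0.04). Slc7a1, an arginine transporter, fell from 277 and 284 to 222 and 230.3 CPM (-0.31 ± 0.03, adjusted p = 2.81e-05), and Hspa5, the chaperone BiP, from 933 and 931 to 846 and 847 CPM (-0.14 ± 0.02, adjusted p = 9.57e-05). Atf3, a stress-induced factor, rose from 112 and 121 to 147 and 151 CPM (0.35 ± 0.04, adjusted p = 4.00e-05). In the AP-1 and ERK feedback list 4 of 41 genes were higher (9.76%) and 7 lower (17.1%). Its largest fall was in Fosl1, an AP-1 subunit, from 8.32 and 7.81 to 3.95 and 4.85 CPM (-0.85 ± 0.12, adjusted p = 0.000415), and Dusp6, the phosphatase that ERK induces, fell from 337 and 323 to 258 and 270.0 CPM (-0.32 ± 0.03, adjusted p = 2.50e-05).

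In the TGF-beta and matrix list, Id3, an inhibitor of E-protein transcription factors, stood at 1.78 and 1.71 CPM in EXOmock and at 9.31 and 9.04 CPM in EXOuniSTING (2.39 ± 0.13, adjusted p = 5.41e-08). Thbs1, the matrix protein thrombospondin, had the smallest adjusted p of the list and fell from 855 and 846 to 578 and 578 CPM (-0.56 ± 0.02, adjusted p = 1.87e-09). Of 45 tested members 2 were higher (4.44%, against 7.96% of all genes) and 3 lower (6.67%, against 8.14%). In the Wnt list 4 of 40 were higher (10.0%) and 2 lower (5.0%), near the shares of all genes. The receptor Fzd7 stood at 64.2, 63.1, 77.5 and 79.6 CPM (0.31 ± 0.04, adjusted p = 0.000147) and the cell cycle target Ccnd1 at 178, 178, 159 and 159 CPM (-0.16 ± 0.03, adjusted p = 0.000696). Wnt2b, a Wnt ligand, was too low to enter the test. It had 6 and 11 counts in EXOmock and 1 and 0 in EXOuniSTING, a count ratio of 0.0533 with a 95% interval of 0.00128 to 0.340 for counting error only; in EXOuniSTING both libraries were under the floor.

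Since microRNAs of the vesicles were the stated subject, the genes that make and use microRNAs in the recipient cells were read as a list. Of 25 tested members 1 was higher (4.0%, against 7.96% of all genes) and 7 were lower (28.0%, against 8.14%), with a median of -0.08. Xpo5, which exports microRNA precursors from the nucleus, fell from 92.5 and 89.0 to 78.3 and 76.5 CPM (-0.23 ± 0.03, adjusted p = 0.000368), and Hnrnpa2b1, an RNA-binding protein tied to sorting of microRNAs into vesicles, from 527 and 533 to 484 and 479 CPM (-0.14 ± 0.02, adjusted p = 0.000611). Ybx1, another RNA-binding protein of this kind, rose by 0.09 ± 0.02 (adjusted p = 0.00145). The calls for Xpo5, Hnrnpa2b1 and Ybx1 held in each of 12 alternative settings. Of other lower members, Dicer1 lost its call in 6 of these, Ago3 in 5, Tnrc6b in 2 and Cnot1 in 1. Under DESeq2 the adjusted p was 0.118 for Dicer1 and 0.0796 for Ago3. Ago2, which carries microRNAs to their targets, stood at 213, 214, 209.6 and 214 CPM (adjusted p = 0.869). The list has a median exonic length of 8.23 kb, and with the trend over exonic length removed its median was -0.06. The part of length in these calls was not tested further.

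Exonic length moved with the falls over all genes. With the genes in 10 equal groups by exonic length, 3.09% of the shortest group (median 0.65 kb) were lower, and of the longest (median 11.9 kb) 20.4%, while the higher genes made up 4.03% and 5.45%. Among 584 genes of at least 12 kb and 5 CPM, 171 were lower (29.3%) and 28 higher, with a median log2 fold change of -0.07. Mdn1, a ribosome assembly ATPase with 21.8 kb of exons, fell from 144 and 148 to 79.1 and 82.7 CPM (-0.85 ± 0.04, adjusted p = 2.41e-08). Macf1, a linker of microtubules and actin with 32.4 kb, fell from 184 and 184 to 133 and 126 CPM (-0.51 ± 0.03, adjusted p = 6.63e-08). The rank correlation of length and log2 fold change was -0.145 across 10008 genes with 5 CPM or more, which share the same 4 libraries. RNA quality was not analysed here, and the part of RNA length in these falls was not tested. The interferon-stimulated genes had a median exonic length of 3.95 kb, and with the length trend removed their median log2 fold change was 0.49.

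**Figure D4:**
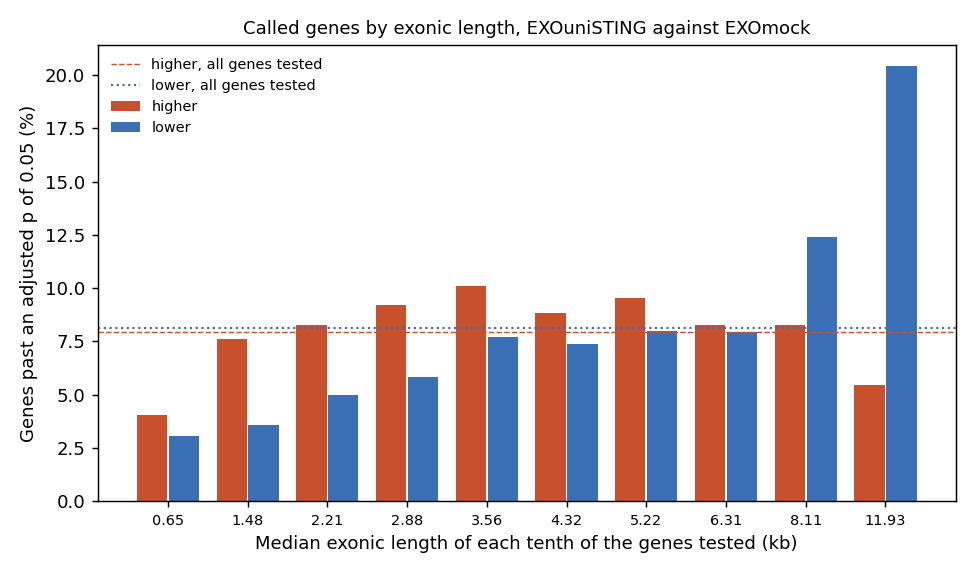
Percentage of genes called higher and lower (vertical axis) in each of 10 equal groups of the genes tested, ordered by exonic length, with the median length in kb on the horizontal axis; the lines mark 7.96% higher and 8.14% lower over all genes. The lower share goes from 3.09% in the shortest group to 20.4% in the longest.

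By the rule for named genes, the 15 largest rises among genes with 5 CPM or more included 10 members of the interferon-stimulated list, besides Ifi27, Ddx58 and Id3. The other two, Srp54b (0, 0.481, 6.10 and 20.9 CPM) and Sumo2 (12.6, 12.7, 23.4 and 38.5 CPM), have close copies in the genome and are uncertain. Both calls were lost without EXOuniSTING preparation 2 (adjusted p = 0.0558 for Srp54b and 0.0934 for Sumo2), and that for Sumo2 also without EXOmock preparation 2 (0.0550). The 15 largest falls, after Ccl6, were in F5, the coagulation factor V (23.7 and 25.7 against 11.5 and 11.9 CPM, -1.08 ± 0.13, adjusted p = 0.000250), and Stfa3, a cysteine protease inhibitor of the stefin family with close copies (30.4 and 30.9 against 14.3 and 14.9 CPM, -1.07 ± 0.10, adjusted p = 3.44e-05). Then came Vasn, Avil, Fosl1, Mdn1, Noct, Adgb, Rbm12, Hbegf, Mroh2a, Usp49, Pfkfb1 and Malat1, at log2 fold changes of -0.96 to -0.70. Malat1, a nuclear long noncoding RNA, stood at 365, 365, 227 and 223 CPM (-0.70 ± 0.05, adjusted p = 1.03e-06). Some of these calls were lost when 1 library was left out, with log2 fold changes there of -0.91 to -0.47: without EXOmock preparation 1 the adjusted p was 0.0594 for Avil, 0.0731 for Rbm12, 0.104 for Adgb, 0.183 for Mroh2a, 0.185 for Pfkfb1 and 0.0844 for Usp49. Without EXOmock preparation 2 it was 0.0585 for Hbegf, 0.0762 for Noct, 0.0962 for Adgb, 0.106 for Mroh2a and 0.0578 for Usp49. Without EXOuniSTING preparation 1 it was 0.0843 for Adgb, 0.214 for Mroh2a and 0.105 for Pfkfb1, and without EXOuniSTING preparation 2 it was 0.0636 for Avil, 0.0750 for Noct, 0.126 for Adgb, 0.0741 for Mroh2a, 0.0648 for Pfkfb1 and 0.148 for Usp49. Of the 15 rises 13 held their call in each of 12 alternative settings, and of the 15 falls 5 did, namely F5, Stfa3, Fosl1, Mdn1 and Malat1. These settings do not include the test for more than a 2-fold change. Chosen after their values were seen, Xist, the RNA that silences an X chromosome, stood at 773, 767, 482 and 483 CPM, and the nuclear RNA Neat1 at 110.3, 111, 92.5 and 94.4 CPM.

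The vesicle response was set beside the response to the mRNA itself in the libraries labelled 4T1, which carry leukocyte markers, share no library with the vesicle groups and have no stated treatment time. Of the 14863 genes, 2228 had a vesicle response above the mRNA response and 1929 below it (edgeR test of the difference), which is 15% and 13%. Among the 78 tested interferon-stimulated genes the difference was positive in 36 and negative in 2, with a median of 0.35. Directly given mRNA raised 12 and lowered 7 of them, with a median of 0.06 (over all genes tested, 12.6% rose and 15.7% fell with the mRNA). Oas3 had a log2 fold change of -0.12 with the mRNA (adjusted p = 0.266), a difference of 2.25 from the vesicle response (adjusted p = 4.15e-08). Its level was already high in those libraries, at means of 65.0 CPM with Mock and 61.1 CPM with uniSTING mRNA, against 9.16 CPM in EXOmock and 39.7 CPM in EXOuniSTING. For Ifit1, low there at means of 0.565 CPM with Mock and 0.543 CPM with uniSTING mRNA, the mRNA value was -0.10 (adjusted p = 0.897) and the difference 3.12 (adjusted p = 0.000115). Rsad2 rose with both, by 1.72 with the mRNA (adjusted p = 0.000409), and the difference was 1.55 (adjusted p = 0.00950). Cmpk2 rose by 3.95 with the mRNA (adjusted p = 0.00142), and a difference of -0.11 did not pass (adjusted p = 0.928).

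**Figure D5:**
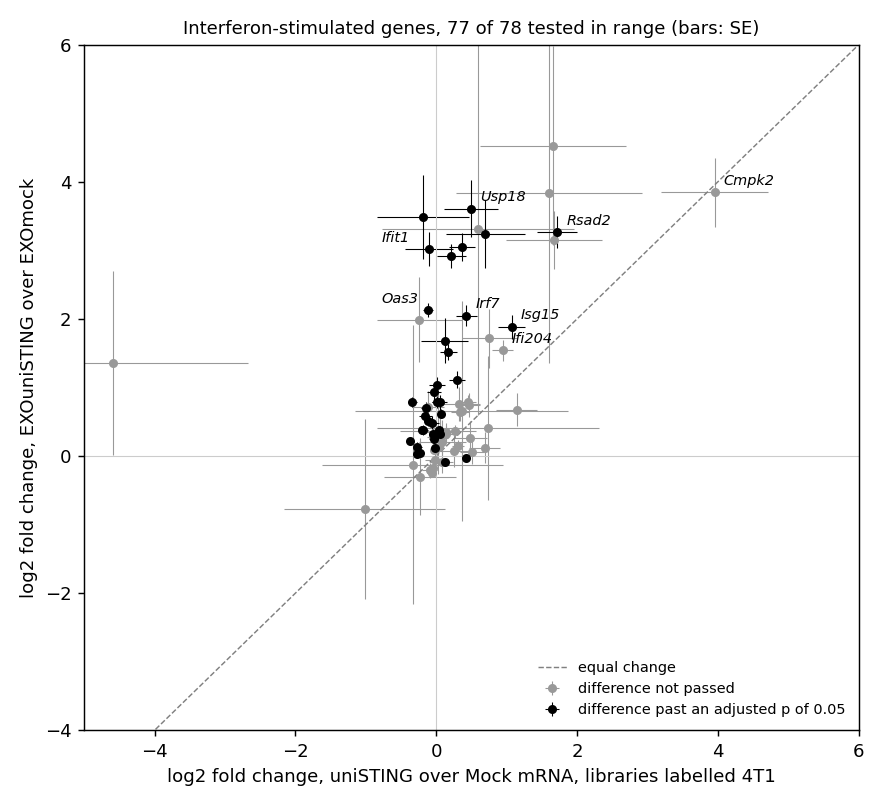
Log2 fold change of EXOuniSTING over EXOmock (vertical axis) against that of uniSTING over Mock mRNA in the libraries labelled 4T1 (horizontal axis) for the tested interferon-stimulated genes, with standard errors as bars, a dashed line of equal change, and black where the difference passed the test; 1 of the 78 genes lies beyond the range and is not drawn. Most black points lie above the line, such as Oas3 at 2.13 against -0.12, while Cmpk2 lies close to it at 3.85 against 3.95.

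Of the 42 interferon-stimulated genes that rose with the vesicles, 6 also rose with the mRNA and 4 fell, and the difference passed for 33. The vesicle rise by which the 42 were chosen is part of that difference, so that the choice raises the 33. Without that choice the difference was positive in 36 of the 78 tested members. The lysosomal genes showed a contrast of another kind: 32 of 45 were lower and 6 higher with the mRNA, and of the 23 that rose with the vesicles 21 fell with the mRNA. For Psap the mRNA value was -0.38 (adjusted p = 7.27e-09) against 0.16 with the vesicles, and for Ctsb -0.16 (adjusted p = 9.34e-07) against 0.11. Of the 40 genes of DNA replication, 32 rose and 0 fell with the mRNA, and the difference was negative in 22 and positive in 0. Over all genes tested 12.6% rose and 15.7% fell with the mRNA, and the difference was positive in 15% and negative in 13%. What was given differs between these 2 experiments, whether the cells differ is uncertain given the markers, and whether time and the way of delivery differ is not stated; these cannot be told apart.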

How the data were processed

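RNA of the 4 vesicle libraries and of 8 libraries of cells given mRNA was sequenced, and the deposited files hold whole-number read counts per gene for each library. The authors aligned reads with HISAT2 to GRCm39, per the submitters' processing notes, and counted paired-end reads over exons summed by gene with featureCounts (Subread 2.0.1) and no strand option, per the file headers, so that overlapping genes on opposite strands cannot be told apart. Read trimming and the HISAT2 version are not given in the sources used here. Of 53647 genes in the files, 52093 matched a symbol.

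Libraries were grouped by their labels. All 12 entered 1 fit with edgeR 4.0.16 (R 4.3.3; TMM factors, filterByExpr, quasi-likelihood F test, Benjamini-Hochberg adjusted p below 0.05 over the 14863 genes tested), with a residual df of 6 and a common biological coefficient of variation of 3.05%. Each standard error was computed from the log2 fold change and its F value. CPM were computed over the deposited totals, 14.1 to 21.2 M counts for the vesicle libraries. Fold changes of genes near the floor of 3 counts depend on the prior count, and their counts or count ratios with exact 95% intervals are given instead where groups were near 0. On data simulated for EXOuniSTING against EXOmock with 14621 genes, of which 200 were changed, the test recovered 73% of genes changed 1.5-fold and 92% of those changed 3-fold, and 2.37% of calls were false. The simulated libraries were independent, with the spread taken from the fit, while 59.8% of the genes called in the real data differed by less than 1.2-fold. These shares are thus not error rates of the calls reported here.

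Named genes were the 15 largest rises and falls with non-overlapping libraries and 5 CPM or more in the higher group (without pseudogenes, unnamed models, antisense and mitochondrial genes), a set of fixed genes, up to 6 called members in each direction and up to 4 others of each list, the clearest differences between the vesicle and mRNA responses, and the 10 most abundant called genes. Members named beyond this rule were chosen after their values were seen. The members and lists were chosen with earlier results of these data known. Other settings tried were the DESeq2 test (1.42.0), edgeR with size factors from DESeq2 or with upper-quartile scaling, limma-voom (limma 3.58.1), other count filters, a fit of the compared libraries alone, a replicate block, a 2-fold minimum, each library left out, and, chosen after seeing the data, preparation 2 alone and removal of the trend over exonic length. Figures were drawn with matplotlib 3.10.9 in Python 3.11.15.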

Additional observations from a re-analysis of the deposited data

Results flagged for a closer look

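The response to vesicles differed from the response to the mRNA itself, by the edgeR test of the difference over all genes, in 2228 genes where it was higher and 1929 where it was lower. In each direction the 6 genes that passed most clearly moved in opposite directions or by unequal amounts in the 2 experiments, and the values below are differences in log2 fold change, vesicle minus mRNA. Higher with vesicles were Plau at 0.92 (0.41 with vesicles and -0.51 with the mRNA), the glycogenin gene Gyg at 1.01 (0.38 and -0.63) and B2m at 0.59 (0.25 and -0.34). The intermediate filament gene Vim differed by 0.45 (0.32 and -0.13), Ftl1 by 0.44 (0.28 and -0.17), and the elongation factor gene Eef2 by 0.35 (0.03 and -0.32). Lower with vesicles were Mdn1 at -1.35 (-0.85 and 0.51), the actin crosslinker gene Flna at -0.88 (-0.45 and 0.43) and Macf1 at -0.80 (-0.51 and 0.29). The chaperone genes Hsp90aa1 and Cct3 each differed by -0.59 (-0.23 and 0.36 for Hsp90aa1, -0.20 and 0.40 for Cct3), and Ldha by -0.58 (-0.10 and 0.47).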

How the results depend on the processing

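Of 396 named genes tested, 0 reversed under any of 12 alternatives, and of the 254 called, 124 held their call in each where tested. These 12 do not include the 2-fold minimum or the filter of 1 CPM in 2 vesicle libraries. The 1183 genes higher and 1210 lower became 603 to 769 and 691 to 763 when 1 vesicle library was left out, where the lone library is assumed to vary like the other groups, and 420 and 453 with preparation 2 alone, an alternative chosen after seeing the data; both leave fewer libraries. DESeq2 called 871 genes higher and 743 lower, and a 2-fold minimum left 12 higher and 1 lower. For the difference from the mRNA response, 2228 higher and 1929 lower, DESeq2 called 1818 higher and 1267 lower. A 2-fold minimum left 8 higher and 11 lower. The cause of the DESeq2 differences was not tested. The share of higher genes among calls was 49.4%, and 57.2% with upper-quartile factors. Depth limits genes near the floor, such as Wnt2b and Ifnb1.

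With the preparation number as a replicate block, 1226 genes were higher and 1264 lower, and the difference passed for 2302 and 2005. The labels do not say that a number marks a shared culture or day. Deviations of same-numbered vesicle libraries from their group means correlated at 0.354 across 10008 genes. The preparation 1 libraries also shared transcripts such as Ins2 and Sftpc, and in each vesicle group detected more genes at a lower total. Libraries of 1 number thus had features in common, but with 2 groups of 2 this does not establish a pairing of cultures.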
